A study of Mus musculus with 6 samples.

Results

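The genes described here are 53 genes of DNA replication, which build and start replication origins, run the replication fork, supply its nucleotides, and assemble and untangle the copied chromatin. They were chosen by symbol, and all 53 were found among the 21456 gene symbols with values in the authors' table. Messenger RNA had been sequenced from 2 cell populations of the ureteric epithelium, the tree of branching tubules in the embryonic kidney from which the collecting ducts form. Tip cells were positive for a Wnt11 reporter (RFP) and a Hoxb7 reporter (GFP), and stalk cells were positive for the Hoxb7 reporter and negative for the Wnt11 reporter. Both groups came from developing kidneys of CFW mice at stage E16.5, with 3 libraries each, and both were defined by the same pair of reporters. How the reporters were built, and whether kidneys of several embryos were pooled, was not stated in the labels. The comparison asks how replication genes differ between the growing tips and the stalks behind them.

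Replication starts where the origin recognition complex marks DNA and, with Cdc6 and Cdt1, loads the ring of Mcm2 to Mcm7 proteins that will become the helicase. The kinase Cdc7 with Dbf4, together with Cdc45, the GINS proteins and Mcm10, turns the loaded ring into an active helicase at the fork. There primase and the polymerases copy the strands, the Pcna clamp and its loader keep the polymerases on DNA, and Fen1 and Lig1 join the short fragments of the lagging strand. Many of these genes are transcribed most in cells that enter and pass through S phase, and cell division in the ureteric tree is known to be concentrated at its tips.

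Levels are given as RPKM, reads scaled to transcript length and library total, as deposited by the authors, so levels of different genes are compared per length. The sequencing depth behind them is unknown. Fold changes are tip minus stalk on the log2(RPKM + 1) scale, which understates the change of low genes, and the standard error (SE) stands beside those described in full. A gene was called when its limma p-value, adjusted by the Benjamini-Hochberg method over all 12532 genes tested, was under 0.05. No label says that each library is a separate animal or litter, so the p-values reflect the spread among these 6 libraries, part of which may be technical.

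The labels were checked against marker genes. All 6 listed tip markers, among them Wnt11 and Ret, were called higher in tip. Their summed level was 1020 to 1800 RPKM in tip, against 48.6 to 112 RPKM in stalk. Because the groups were sorted by a Wnt11 reporter, the call of Wnt11 is no independent check of the labels. Wnt11 alone had 423 to 930 RPKM in the tip libraries. All 6 listed stalk markers were called higher in stalk, and they summed to 10.9 to 33.5 RPKM in tip, against 1050 to 1580 RPKM in stalk. Each of the 10 listed markers of the ureteric epithelium was measured in both groups, with 3 called higher in tip and 4 called higher in stalk. All 6 listed endothelial markers were called higher in stalk, summing to 5.03 to 7.84 RPKM in tip, against 36.7 to 61.9 RPKM in stalk, and none was at 0 in every library. The 5 listed nephron progenitor markers summed to 2.76 to 3.27 RPKM in tip, against 1.19 to 2.39 RPKM in stalk. Only Cited1 of the 5 averaged enough to be tested, and it was called higher in tip (log2 fold change 0.82, limma adjusted p = 0.00727). Among those too low to test, Six2 had its higher mean in tip, whereas Osr1, Meox1 and Eya1 had theirs in stalk. The libraries of the groups did not overlap for Six2 or for Osr1, so these markers did not share a direction. The 5 stromal markers summed to 1.73 to 3.06 RPKM in tip, against 1.73 to 3.2 RPKM in stalk. The 5 immune markers summed to 12.7 to 15.1 RPKM in tip, against 12.2 to 19.5 RPKM in stalk, with Cd68 called higher in tip (0.69, limma adjusted p = 0.00375) and Laptm5 called higher in stalk (-2.39, limma adjusted p = 0.000206). The 3 of 5 erythroid markers with values summed to 12.4 to 72.4 RPKM in tip, against 8.86 to 83.8 RPKM in stalk. The part of these markers in the results below was not tested. On the second principal component of all genes tested (9.21% of the variance), tip replicate 2 lay at -20.5 and stalk replicate 1 at -25.0, away from the other 4 libraries (7.72 to 18.5).

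The promoters of 6 of these genes are printed to illustrate the sequence features that were searched for. They were chosen by gene and not by the matches they hold. They are those of the helicase gene Mcm5 and the topoisomerase gene Top2a, which are among the largest changes, of the origin gene Orc1 and the clamp gene Pcna, and of the origin genes Orc2 and Orc4, Orc4 having the smallest absolute change of the 53. Where a gene has several windows, the one nearest its GENCODE start is printed. Each runs 5′ to 3′ on the gene's strand, from 250 bases before to 50 bases after the RefSeq start (build GRCm38.p6). Capitals mark 3 kinds of match on either strand. The E2F-type letters were TTCGCGC, the second form TTGGCGC and the third form TTCCCGC. The letters of the CHR, the cell cycle genes homology region, were TTTGAA or alternatively TTCGAA, and those of the CCAAT box were CCAAT.
Mcm5 (chr8:75109259-75109558, plus strand): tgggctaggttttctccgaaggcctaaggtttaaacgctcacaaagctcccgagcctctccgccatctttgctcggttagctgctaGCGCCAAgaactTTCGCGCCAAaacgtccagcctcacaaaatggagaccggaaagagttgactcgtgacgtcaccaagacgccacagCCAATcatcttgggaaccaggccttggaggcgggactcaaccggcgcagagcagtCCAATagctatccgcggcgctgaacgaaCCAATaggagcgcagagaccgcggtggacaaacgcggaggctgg
Top2a (chr11:99024140-99024439, minus strand): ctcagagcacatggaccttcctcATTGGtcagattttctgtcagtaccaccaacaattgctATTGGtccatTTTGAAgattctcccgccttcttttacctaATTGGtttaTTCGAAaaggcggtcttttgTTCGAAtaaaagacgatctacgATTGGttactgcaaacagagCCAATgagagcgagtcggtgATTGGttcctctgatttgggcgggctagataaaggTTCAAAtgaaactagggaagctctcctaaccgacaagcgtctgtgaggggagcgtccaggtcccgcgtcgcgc
Orc1 (chr4:108579204-108579503, plus strand): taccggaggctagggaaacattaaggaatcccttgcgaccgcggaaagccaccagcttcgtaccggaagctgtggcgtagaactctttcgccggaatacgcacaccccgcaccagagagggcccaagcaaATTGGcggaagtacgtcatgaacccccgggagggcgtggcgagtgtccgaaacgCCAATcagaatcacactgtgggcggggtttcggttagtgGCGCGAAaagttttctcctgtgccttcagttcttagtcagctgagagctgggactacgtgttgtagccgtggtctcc
Pcna (chr2:132253131-132253430, minus strand): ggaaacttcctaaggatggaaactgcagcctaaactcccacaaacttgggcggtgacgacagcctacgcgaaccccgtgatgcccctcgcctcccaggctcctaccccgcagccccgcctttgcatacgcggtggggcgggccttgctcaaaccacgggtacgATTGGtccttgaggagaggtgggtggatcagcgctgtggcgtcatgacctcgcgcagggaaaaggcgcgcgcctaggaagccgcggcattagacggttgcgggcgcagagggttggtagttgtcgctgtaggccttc
Orc2 (chr1:58505060-58505359, minus strand): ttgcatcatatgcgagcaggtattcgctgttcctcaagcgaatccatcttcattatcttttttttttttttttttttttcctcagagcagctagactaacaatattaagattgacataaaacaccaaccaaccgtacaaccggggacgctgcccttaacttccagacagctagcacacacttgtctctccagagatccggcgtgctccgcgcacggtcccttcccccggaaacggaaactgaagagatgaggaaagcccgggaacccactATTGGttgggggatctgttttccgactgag
Orc4 (chr2:48950185-48950484, minus strand): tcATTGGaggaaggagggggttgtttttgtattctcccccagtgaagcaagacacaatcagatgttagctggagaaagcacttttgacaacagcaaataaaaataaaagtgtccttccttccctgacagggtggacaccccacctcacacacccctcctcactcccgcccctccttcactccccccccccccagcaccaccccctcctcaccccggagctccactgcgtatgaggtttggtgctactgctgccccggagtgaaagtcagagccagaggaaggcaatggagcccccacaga
Mcm5 held 3 E2F-type matches, with 1 overlap between them, and 3 CCAAT matches. Top2a held no E2F-type match but 4 CHR and 6 CCAAT matches. Orc1 held 1 E2F-type match and 2 CCAAT matches, and Pcna, Orc2 and Orc4 held 1 CCAAT match each and neither of the other letters. Another of the 3 windows of Orc4 held 1 E2F-type match.

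E2F factors are known to bind promoters of S-phase genes, and the CHR is known from promoters of genes used later, in G2 and mitosis. RefSeq promoter windows were matched for 45 of the 53 genes, with 54 windows in all. E2F-type letters stood in 30 of these 54 windows (55.6%), against 14.7% of 11289 windows of genes tested and 8.07% of all 32851 windows of the same length. The most frequent form was TTCCCGC, in 37.0% of the replication genes' windows, against 8.38% of windows of genes tested. TTGGCGC stood in 20.4% and TTCGCGC in 13.0%, against 4.35% and 3.17% of windows of genes tested. CHR letters were in 20.4% of the replication genes' windows, against 13.5% of windows of genes tested and 19.2% of all windows. The CHR share was thus close to that of all windows. CCAAT was in 53.7%, against 37.8% of windows of genes tested and 37.4% of all windows. Both E2F-type and CHR letters occurred in 5 windows. The 27 genes with an E2F-type match had a median log2 fold change of 1.56 and the 18 without one a median of 1.49. Of the 27, Orc3 and Orc4 were not called, and of the 18, Orc5 was not. A match describes letters in this window and does not show binding.

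All 53 genes passed the minimum of 1 RPKM on average, and 50 of the 53 were called higher in tip, where 26.1% of all genes tested were. None of the 53 was called higher in stalk, where 22.5% of all genes tested were, and the 3 genes not called were the origin genes Orc3, Orc4 and Orc5. The median log2 fold change was 1.54, with a range of -0.11 to 2.17, against a median of 0.05 over all genes tested. A log2 fold change of at least 1 was reached by 41 of the 53 genes, all called higher in tip, against 8.24% of all genes tested that were called higher in tip by at least this much. In 50 of the 53 genes every tip library lay above every stalk library, which held for 31.3% of all genes tested. The RPKM of the 53 genes summed to 1802, 1475 and 1715 in tip replicates 1, 2 and 3, against 544.0, 559.6 and 643.3 in stalk replicates 1, 2 and 3. As shares of all RPKM these sums were 0.522%, 0.417% and 0.479% in the tip libraries, against 0.157%, 0.153% and 0.183% in the stalk libraries. In such bulk samples, fewer cells in S phase and less replication RNA per cell cannot be told apart.

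**Figure D1:**
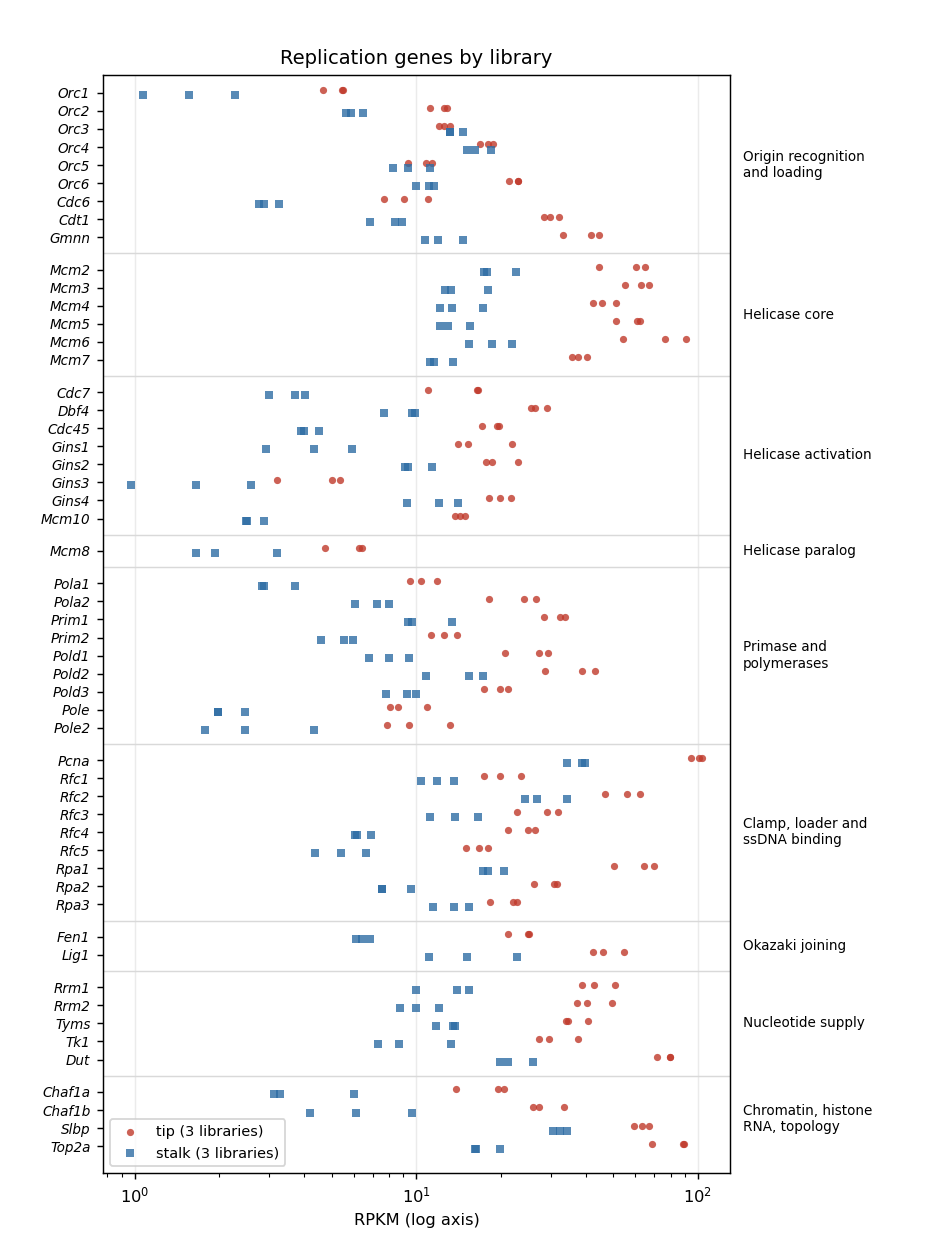
Level of each replication gene in each library, in RPKM on a log axis, with genes down the page by role; circles are the 3 tip libraries and squares the 3 stalk libraries. The circles lie to the right of all squares in 50 of the 53 genes, and the exceptions are Orc3, Orc4 and Orc5.

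**Figure D2:**
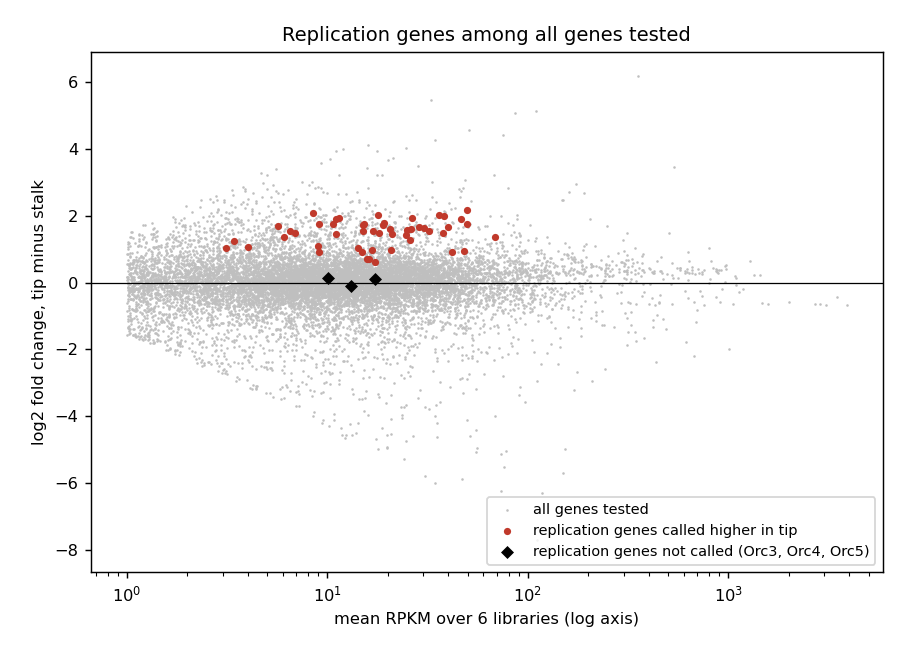
Log2 fold change, tip minus stalk, of each of 12532 genes tested, against its mean RPKM over the 6 libraries on a log axis. Grey points are all genes, circles the 50 replication genes called higher in tip and diamonds Orc3, Orc4 and Orc5; the replication genes have a median of 1.54, against 0.05 for all genes.

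The 9 genes of origin recognition and helicase loading had the lowest median of the role groups, 0.98, and were the only role group with genes not called. Cdt1 (chromosome 8, 122568015 to 122573554, plus strand, GENCODE M21 on GRCm38), which with Cdc6 brings the helicase to origins, had 28.3, 32.1 and 29.8 RPKM in the tip libraries, against 6.82, 8.4 and 8.91 RPKM in the stalk libraries. Its log2 fold change was 1.79 (SE 0.12, limma adjusted p = 1.87e-05), the largest of the group. Gmnn encodes geminin, the inhibitor of Cdt1, and it had 44.5, 33.1 and 41.8 RPKM in the tip libraries, against 10.7, 11.9 and 14.6 RPKM in the stalk libraries. It was higher in tip by 1.61 (SE 0.15, limma adjusted p = 7.55e-05), so both the loader and its inhibitor rose. Cdc6 averaged 9.25 ± 1.67 RPKM in tip and 2.96 ± 0.257 RPKM in stalk (SD, n = 3 each), a log2 fold change of 1.36.

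The 6 subunits of the origin recognition complex held 3 genes that rose and 3 that were not called. Orc1, the subunit whose abundance is known to follow the cell cycle in mammalian cells, had 4.65, 5.47 and 5.44 RPKM in the tip libraries, against 2.28, 1.07 and 1.56 RPKM in the stalk libraries. Tip exceeded stalk by 1.25 log2 units (SE 0.19, limma adjusted p = 0.000926), and its level was the lowest of the complex in both groups. Orc6 averaged 22.4 ± 0.878 RPKM in tip and 10.9 ± 0.826 RPKM in stalk (SD, n = 3 each), a log2 fold change of 0.98. Orc2 averaged 12.2 ± 0.844 RPKM in tip and 5.99 ± 0.441 RPKM in stalk (SD, n = 3 each), a log2 fold change of 0.92.

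Orc3 (chromosome 4, 34570796 to 34614944, minus strand) had 12.5, 12.0 and 13.2 RPKM in the tip libraries, against 13.2, 13.2 and 14.6 RPKM in the stalk libraries. The log2 fold change was -0.11 (SE 0.1, limma adjusted p = 0.393), although no tip library exceeded a stalk library. The 2 rows of Orc3 that could be tested had opposite signs and neither was called. Its highest row had a log2 fold change of -0.53 (limma adjusted p = 0.255) and its second row one of 0.77 (limma adjusted p = 0.32). Orc4 (chromosome 2, 48902824 to 48950277, minus strand) had 18.7, 16.8 and 18.0 RPKM in the tip libraries, against 16.1, 18.4 and 15.1 RPKM in the stalk libraries. The groups overlapped, and the log2 fold change was 0.11 (SE 0.11, limma adjusted p = 0.436). Orc5 (chromosome 5, 22486485 to 22550429, minus strand) had 11.4, 9.36 and 10.8 RPKM in the tip libraries, against 8.24, 11.2 and 9.31 RPKM in the stalk libraries. The ranges crossed again, with a log2 fold change of 0.13 (limma SE 0.14, adjusted p = 0.474). Orc5 shares 90 exon bases on the same strand with the pseudogene Gm15421, which averaged 121 RPKM. Gm15421 was itself called higher in tip (0.33, SE 0.1, limma adjusted p = 0.0287). The highest subunit of the complex exceeded the lowest 3.92- to 4.94-fold in the tip libraries and 7.05- to 17.1-fold in the stalk libraries, with Orc6 highest and Orc1 lowest in tip, and Orc4 highest and Orc1 lowest in stalk. The median log2 fold change was 0.52 over the 6 subunits and 1.56 over the other 47 genes, all 47 of which were called higher in tip.

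**Figure D3:**
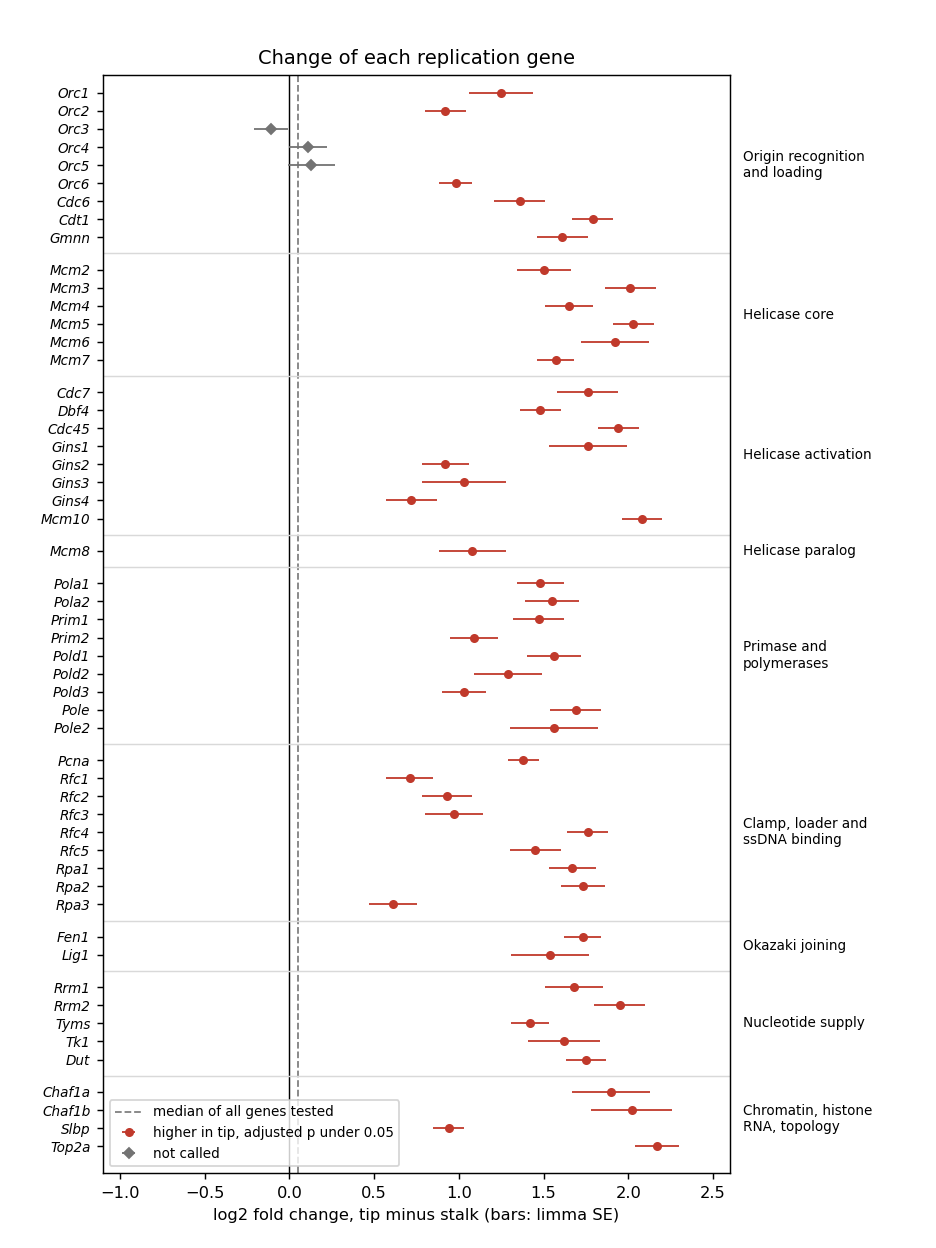
Log2 fold change, tip minus stalk, of each replication gene with its limma standard error as a bar, with genes down the page by role; circles were called higher in tip and diamonds were not called. The dashed line is the median of all genes tested, 0.05, and among the 53 genes only Orc3, Orc4 and Orc5 lie near it.

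The helicase core rose as a whole. All 6 genes from Mcm2 to Mcm7 were called higher in tip, with log2 fold changes from 1.50 to 2.03 and a median of 1.78. Mcm5 had 62.3, 51.3 and 60.9 RPKM in the tip libraries, against 13.0, 12.1 and 15.5 RPKM in the stalk libraries. Here the log2 fold change was 2.03 (SE 0.12, limma adjusted p = 1.25e-05), the largest of the core. Mcm3 had 66.8, 54.9 and 62.6 RPKM in the tip libraries, against 12.6, 13.3 and 18.0 RPKM in the stalk libraries. It was higher in tip by 2.01 (SE 0.15, limma adjusted p = 2.32e-05). Mcm2 had the smallest change of the core, with 64.9, 44.5 and 60.4 RPKM in the tip libraries, against 17.4, 17.8 and 22.6 RPKM in the stalk libraries. Its log2 fold change was 1.50 (SE 0.16, limma adjusted p = 0.000154), and its groups were still far apart. Mcm6 averaged 73.9 ± 18.3 RPKM in tip, against 18.6 ± 3.24 RPKM in stalk (SD, n = 3 each), and varied most within tip, where tip replicate 2 had 54.4 RPKM and tip replicate 1 had 90.7 RPKM. The ring holds its subunits in equal number, and the highest of the 6 transcripts exceeded the lowest 1.54- to 2.25-fold in the tip libraries and 1.55- to 1.67-fold in the stalk libraries. Mcm7 had the lowest mean of the core in both groups, and its level may include reads of the pseudogene Gm5487, which is 97.7% identical over 2157 bases and was not analysed here.

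All 8 genes of helicase activation were called higher in tip, and their median log2 fold change was 1.62. Mcm10 (chromosome 2, 4989714 to 5012791, minus strand), which helps to open the activated helicase, had 14.9, 13.7 and 14.3 RPKM in the tip libraries, against 2.89, 2.51 and 2.49 RPKM in the stalk libraries. The log2 fold change was 2.08 (SE 0.12, limma adjusted p = 9.37e-06), second among the 53 genes only to that of Top2a. Cdc45, a part of the running helicase, had 19.7, 17.1 and 19.3 RPKM in the tip libraries, against 4.52, 3.99 and 3.91 RPKM in the stalk libraries. Tip exceeded stalk by 1.94 log2 units (SE 0.12, limma adjusted p = 1.22e-05). The kinase gene Cdc7 changed by 1.76 and its activating partner Dbf4 by 1.48 on the log2 scale.

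The GINS complex joins Cdc45 on the helicase, and the log2 fold changes of its 4 genes ran from 0.72 to 1.76. Gins4 had 19.8, 18.1 and 21.6 RPKM in the tip libraries, against 9.26, 14.1 and 12.0 RPKM in the stalk libraries. On the log2 scale its fold change of 0.72 (limma SE 0.15, adjusted p = 0.00532) was the smallest of the activation genes. Gins1 averaged 17.1 ± 4.22 RPKM in tip and 4.38 ± 1.49 RPKM in stalk (SD, n = 3 each), a log2 fold change of 1.76. Gins2 and Gins3 changed by 0.92 and 1.03 on the log2 scale. Gins2 shares 2758 exon bases with Gse1 on the opposite strand, and Gse1 was higher in stalk by a log2 fold change of -0.83 (limma SE 0.14, adjusted p = 0.00181). The RNA kit marks strand, but the use of strand in counting is not given in the sources used here, so reads of such partners may not have been told apart. In the same way Orc2 shares 1150 exon bases with Nif3l1 and Rfc2 shares 952 with Lat2. Rfc5 shares 499 with Wsb2, and Mcm7 shares 321 with Ap4m1. Ap4m1 was called higher in tip (0.56, SE 0.15, limma adjusted p = 0.0174). Nif3l1 and Wsb2 were not called, and Lat2 was too low to test. Some shorter overlaps have partners of high level. Rfc4 shares 194 bases with Eif4a2, which averaged 158 RPKM and was called higher in stalk (-0.3, SE 0.1, limma adjusted p = 0.0402). Fen1 shares 130 with Tmem258 (49.3 RPKM), and Orc6 shares 171 with Vps35 (32.2 RPKM). Neither Tmem258 nor Vps35 was called.

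Mcm8 is a paralog of the helicase core that is known mainly for recombination repair. It had 6.27, 4.75 and 6.41 RPKM in the tip libraries, against 1.65, 3.2 and 1.93 RPKM in the stalk libraries. It was higher in tip by 1.08 (SE 0.2, limma adjusted p = 0.00286), and its level lay below that of each of the 6 core genes in every library.

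Primase and the polymerases rose in all 9 genes, with a median log2 fold change of 1.48 and a range of 1.03 to 1.69. Pole, the catalytic subunit of the leading-strand polymerase epsilon, had 10.9, 8.62 and 8.07 RPKM in the tip libraries, against 2.46, 1.97 and 1.98 RPKM in the stalk libraries. Its log2 fold change was 1.69 (SE 0.15, limma adjusted p = 6.22e-05). Pole2, its second subunit, had 13.2, 7.86 and 9.39 RPKM in the tip libraries, against 2.47, 1.77 and 4.32 RPKM in the stalk libraries. Tip exceeded stalk by 1.56 log2 units with a wider error (SE 0.26, limma adjusted p = 0.00162). Pold3, an accessory subunit of the lagging-strand polymerase delta, had 19.8, 17.4 and 21.2 RPKM in the tip libraries, against 10.0, 9.23 and 7.81 RPKM in the stalk libraries. Its change was the smallest of the group at 1.03 (SE 0.13, limma adjusted p = 0.000322), while the catalytic subunit gene Pold1 changed by 1.56 and Pold2 by 1.29. Within the primase and polymerase alpha complex, Pola1, Pola2 and Prim1 changed by 1.48, 1.55 and 1.47, and Prim2 by 1.09.

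Of the clamp, clamp loader and single-strand binding genes, all 9 were called higher in tip, and their median log2 fold change was 1.38 (range 0.61 to 1.76). Pcna, the clamp itself, had the highest mean level of the 53 genes, 101, 94.1 and 103 RPKM in the tip libraries, against 39.8, 34.2 and 38.6 RPKM in the stalk libraries. The log2 fold change was 1.38 (SE 0.09, limma adjusted p = 1.89e-05). The processed pseudogene Pcna-ps2 is 99.2% identical to a Pcna transcript over 781 bases and was listed with 133, 125 and 118 RPKM in the tip libraries, against 50.4, 35.8 and 45.6 RPKM in the stalk libraries. The authors' counting may therefore have split reads between them, and the level of Pcna alone is uncertain. The sum of both changed by 1.46 (limma adjusted p = 2.81e-05), an alternative added once the values had been seen.

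The log2 fold changes of the 5 clamp loader genes ran from 0.71 to 1.76. Rfc4 had 26.3, 21.1 and 24.9 RPKM in the tip libraries, against 6.15, 6.07 and 6.89 RPKM in the stalk libraries, a log2 fold change of 1.76 (limma SE 0.12, adjusted p = 1.86e-05). The large subunit gene Rfc1 changed by 0.71 (SE 0.14, limma adjusted p = 0.00406), with a mean of 20.3 ± 3.14 RPKM in tip and 12.0 ± 1.61 RPKM in stalk (SD, n = 3 each). Rfc2, Rfc3 and Rfc5 changed by 0.93, 0.97 and 1.45. The highest loader transcript exceeded the lowest 3.12- to 3.46-fold in the tip libraries and 4.53- to 6.15-fold in the stalk libraries, with Rfc2 the highest and Rfc5 the lowest by group mean in both.

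Replication protein A, which coats single-stranded DNA at the fork, is a complex of 3 subunits, and all 3 genes rose. Rpa2 had 30.8, 26.2 and 31.5 RPKM in the tip libraries, against 7.57, 7.54 and 9.6 RPKM in the stalk libraries, a log2 fold change of 1.73 (limma SE 0.13, adjusted p = 2.66e-05). Rpa3 (chromosome 6, 8255936 to 8259173, minus strand), the smallest subunit, had 22.7, 18.2 and 22.1 RPKM in the tip libraries, against 15.4, 13.6 and 11.5 RPKM in the stalk libraries. On the log2 scale its fold change of 0.61 (limma SE 0.14, adjusted p = 0.00718) was the smallest among the 50 genes called, and its groups did not overlap. Rpa1 changed by 1.67, and the difference between the subunits was not tested.

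Both genes of Okazaki fragment joining rose. Fen1, the flap endonuclease that trims each fragment, had 25.0, 21.2 and 25.2 RPKM in the tip libraries, against 6.42, 6.1 and 6.82 RPKM in the stalk libraries. Its log2 fold change was 1.73 (SE 0.11, limma adjusted p = 1.61e-05). Lig1, the ligase that seals the fragments, had 54.6, 42.4 and 46.1 RPKM in the tip libraries, against 15.1, 11.1 and 22.7 RPKM in the stalk libraries. It was higher in tip by 1.54 (SE 0.23, limma adjusted p = 0.000751), and stalk replicate 3 was the highest of the stalk libraries. Among its 16 rows in the table, 4 held the same 6 values. Counted once, they left a log2 fold change of 1.63 (limma adjusted p = 0.00031), an alternative added once the values had been seen.

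All 5 genes of nucleotide supply were called higher in tip, and their median log2 fold change was 1.68. Rrm2, the subunit that limits ribonucleotide reductase in S phase, had 49.5, 37.1 and 40.4 RPKM in the tip libraries, against 10.0, 8.73 and 12.0 RPKM in the stalk libraries. The log2 fold change was 1.95 (SE 0.15, limma adjusted p = 2.87e-05), and that of its partner Rrm1 was 1.68. Dut, which removes dUTP, had 79.3, 71.6 and 79.8 RPKM in the tip libraries, against 21.1, 19.8 and 25.9 RPKM in the stalk libraries. Tip exceeded stalk by 1.75 log2 units (SE 0.12, limma adjusted p = 1.84e-05). Tyms, the thymidylate synthase, had 34.1, 34.7 and 40.7 RPKM in the tip libraries, against 11.7, 13.5 and 13.7 RPKM in the stalk libraries. Its change was the smallest of the group at 1.42 (SE 0.11, limma adjusted p = 3.35e-05), and the salvage kinase gene Tk1 changed by 1.62.

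Chromatin assembly and topology held the largest change of all 53 genes. Top2a (chromosome 11, 98992943 to 99024189, minus strand), the topoisomerase that untangles sister chromatids and is used into mitosis, had 88.9, 68.8 and 88.2 RPKM in the tip libraries, against 16.3, 16.1 and 19.9 RPKM in the stalk libraries. Here the log2 fold change was 2.17 (SE 0.13, limma adjusted p = 1.25e-05). Chaf1b, a subunit of the factor that places histones on new DNA, had 33.5, 25.9 and 27.2 RPKM in the tip libraries, against 6.12, 4.18 and 9.69 RPKM in the stalk libraries. It was higher in tip by 2.02 (SE 0.24, limma adjusted p = 0.000271), beside 1.90 for its partner Chaf1a. Slbp, which binds the end of replication-dependent histone mRNAs, had 59.5, 66.9 and 63.1 RPKM in the tip libraries, against 34.4, 32.5 and 30.6 RPKM in the stalk libraries. Its log2 fold change was 0.94 (SE 0.09, limma adjusted p = 9.86e-05), and it was the only 1 of these 4 genes under 1. Chaf1a shares 4648 exon bases with Ubxn6 on the opposite strand, and Ubxn6 was not called (0.18, SE 0.1, limma adjusted p = 0.181).

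A further list of 59 replication genes was examined beside the 53. All 59 had values, 58 were tested, and 48 were called higher in tip, 1 was called higher in stalk and 9 were not called, with a median log2 fold change of 1.06. Among all genes tested, tip calls made up 26.1% and stalk calls 22.5%, with a median log2 fold change of 0.05. The largest changes were those of Dctd, Pclaf and Cdca7. Dctd, which makes the precursor of thymidylate, had 51.3, 36.1 and 51.8 RPKM in the tip libraries, against 5.38, 6.31 and 8.25 RPKM in the stalk libraries, a log2 fold change of 2.63 (limma SE 0.18, adjusted p = 1.96e-05). Pclaf, which encodes a factor bound to the Pcna clamp and was listed under an older symbol, changed by 2.42 (SE 0.15, limma adjusted p = 1.22e-05). Cdca7, a partner of the chromatin remodeller Hells, changed by 2.32 (SE 0.21, limma adjusted p = 6.25e-05).

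The single gene of this further list called higher in stalk was Pold4, the smallest subunit of polymerase delta. It had 3.17, 4.25 and 4.69 RPKM in the tip libraries, against 9.28, 17.3 and 8.39 RPKM in the stalk libraries. The log2 fold change was -1.28 (SE 0.26, limma adjusted p = 0.00378), opposite in sign to Pold1, Pold2 and Pold3. Stalk replicate 2 was the highest, and every stalk library lay above every tip library. The 9 genes not called were Rrm2b, Tk2, Lig3, Lig4, Polb, Polg, Ctc1, Stn1 and Smarcal1, with log2 fold changes from -0.30 to 0.29. They include the mitochondrial polymerase gene Polg (0.04, limma adjusted p = 0.82) and the repair polymerase gene Polb (-0.14, limma adjusted p = 0.396).

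Genes were compared in 10 pairs by the log2 ratio of their levels within each library, which does not depend on how a library was scaled apart from the pseudocount. With 3 against 3 libraries the exact two-sided permutation test cannot give a p below 0.1, so no pair could reach 0.05, and adjusted values are over the 10 pairs. In 7 pairs the tip and stalk ratios did not overlap, each with an exact permutation p of 0.1 and an adjusted p of 0.143. For single genes, every tip library lay above every stalk library in 31.3% of all genes tested, and the reverse held in 26.5%. The share of other gene pairs that lie apart was not computed, so no conclusion is drawn from the count of 7. One of the 7, Mcm10 over Mcm8, overlapped when the highest row stood for each gene (log2 difference 0.72, exact permutation p = 0.3). The largest difference was that of Rrm2 over Rrm2b, the reductase subunit used outside S phase. The RPKM ratio was 15.6, 10.4 and 10.8 in the tip libraries, against 2.71, 1.33 and 3.15 in the stalk libraries, a log2 difference of 2.25. Rrm2b itself was not called (-0.30, SE 0.2, limma adjusted p = 0.244), and tip and stalk overlapped.

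Tk1 over Tk2, the mitochondrial thymidine kinase, was 7.36, 7.32 and 5.63 in the tip libraries, against 1.43, 1.34 and 2.36 in the stalk libraries. The log2 difference was 1.87, and Tk2 was not called (-0.25, SE 0.16, limma adjusted p = 0.223). Top2a over Top2b, the form also made in cells that do not divide, was 2.57, 2.43 and 2.82 in the tip libraries, against 0.741, 0.814 and 0.844 in the stalk libraries. The log2 difference was 1.66, with Top2a above Top2b in every tip library and below it in every stalk library. Top2b was itself called higher in tip, by 0.51 (SE 0.11, limma adjusted p = 0.00667). Lig1 over Lig3 differed by 1.28, with Lig3 not called (0.26, SE 0.11, limma adjusted p = 0.0948). Mcm10 over Mcm8 differed by 0.99, Orc6 over Orc4 by 0.87 and Pole2 over Pole3 by 0.78. The Orc6 over Orc4 ratio was 1.23, 1.27 and 1.27 in the tip libraries, against 0.693, 0.629 and 0.662 in the stalk libraries, with Orc6 above Orc4 in every tip library and below it in every stalk library.

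In the other three pairs the groups overlapped. Cdt1 over Gmnn was 0.637, 0.97 and 0.712 in the tip libraries, against 0.64, 0.704 and 0.608 in the stalk libraries, a log2 difference of 0.18 (exact permutation p = 0.5, adjusted p = 0.556). Orc1 over Orc2 differed by 0.34 (exact permutation p = 0.3, adjusted p = 0.375) and Chaf1a over Chaf1b by -0.11 (exact permutation p = 0.6, adjusted p = 0.6). These p-values do not show that the ratios were equal.

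**Figure D4:**
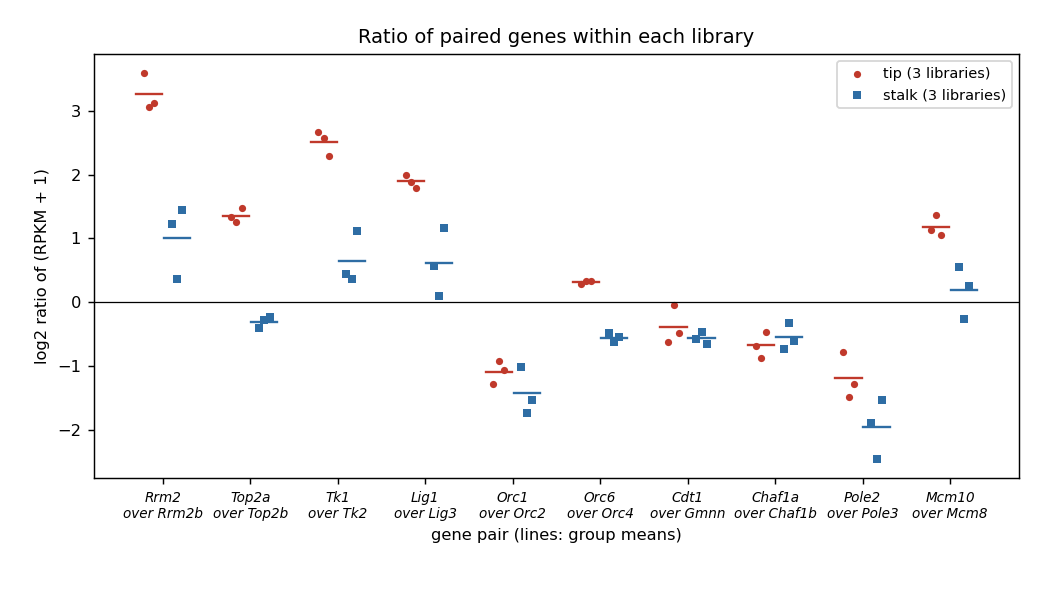
Log2 ratio of (RPKM + 1) for 10 gene pairs, 1 point per library, with tip circles left of stalk squares and lines at the group means. The groups lie apart in 7 pairs, with means that differ by 2.25 log2 units for Rrm2 over Rrm2b, and overlap for Orc1 over Orc2, Cdt1 over Gmnn and Chaf1a over Chaf1b.

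The table lists several rows for 40 of the 53 replication genes and up to 16 rows for 1 gene, with no transcript identifier. Fitted row by row, an alternative added once the values had been seen, 91 of their 255 rows reached a mean of 1 RPKM. Of these 91, 68 rows were called higher in tip, where 15.9% of all 20279 rows tested were, and no row was called higher in stalk, where 13.9% were. A row called higher in tip was found for 51 of the 53 genes, and the gene added by this view was Orc4. A gene with several rows has several chances of such a call. The share of all symbols with at least 1 row called higher in tip was not computed, so the 51 has no like background. Its second row had 6.25, 5.77 and 7.91 RPKM in the tip libraries, against 4.26, 4.04 and 3.49 RPKM in the stalk libraries, a log2 fold change of 0.63 (limma SE 0.17, adjusted p = 0.0273). Its highest row had 4.03, 5.11 and 6.79 RPKM in the tip libraries, against 5.56, 5.83 and 5.39 RPKM in the stalk libraries (-0.09, SE 0.19, limma adjusted p = 0.77). Whether these rows are separate transcripts of Orc4 cannot be read from the table. Orc4 also shares 446 exon bases with Acvr2a on the opposite strand, and Acvr2a was higher in stalk (-0.54, SE 0.11, limma adjusted p = 0.00423).

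Within each group the level of the replication genes varied by library, with a clearer order in tip than in stalk. Tip replicate 2 was the lowest tip library for 44 of the 53 genes, as it was for 46.1% of all genes tested, and tip replicate 1 was the highest for 35 of the 53, against 34.9%. Stalk replicate 3 was the highest stalk library for 31 of the 53 genes, against 37.1%. Stalk replicate 1 was the lowest for 24 of the 53, a smaller share than the 50.6% of all genes tested. Stalk replicate 2 was the lowest for 20 of the 53, against 28.0%, and stalk replicate 3 for 9, against 21.4%. The median deviation of the 53 genes from their group mean was 0.11, -0.15 and 0.05 log2 units in tip replicates 1, 2 and 3, and -0.09, -0.05 and 0.10 in stalk replicates 1, 2 and 3. Over all genes tested no median deviation exceeded 0.07 in size. Tip replicate 2 also had the lowest Wnt11 of the tip libraries, 423 RPKM against 930 and 726 RPKM, the lowest Ret, 112 RPKM against 176 and 140 RPKM, and the highest sum of stalk markers, 33.5 RPKM against 10.9 and 20.3 RPKM. Stalk replicate 3 had the highest sum of tip markers of the stalk libraries, 112 RPKM against 48.6 and 75.4 RPKM. Its Wnt11 was 24.5 RPKM, against 1.92 and 8.67 RPKM in stalk replicates 1 and 2. The tip marker Sox9 went the other way, with 8.21, 3.12 and 3.9 RPKM in stalk replicates 1, 2 and 3. The sum of stalk markers was 1420 RPKM in stalk replicate 3, between 1050 RPKM in replicate 1 and 1580 RPKM in replicate 2. What part the makeup of each sort had in these deviations was not tested. Without tip replicate 2 the median log2 fold change of the 53 genes was 1.62, without stalk replicate 3 it was also 1.62, and 50 genes were called in each case. Without both libraries that stood apart on the second principal component it was 1.59, again with 50 called.

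**Figure D5:**
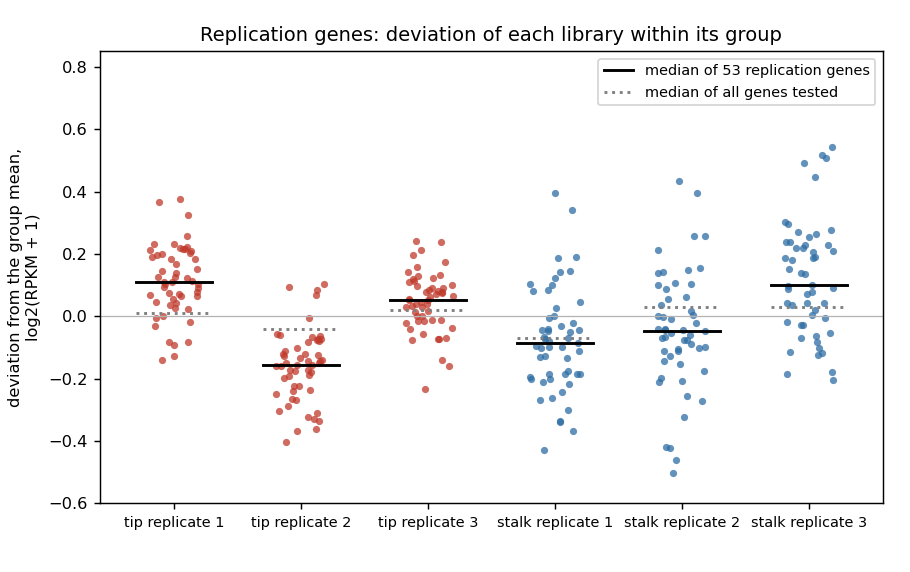
Deviation of each of 53 replication genes from its group mean in each library, on the log2(RPKM + 1) scale; points are genes, the solid line is their median and the dotted line the median of all genes tested. Tip replicate 2 has a median of -0.15 and stalk replicate 3 a median of 0.10.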

How the data were processed

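Messenger RNA of 3 tip and 3 stalk libraries was sequenced from stranded libraries, per the labels' protocols. The authors deposited RPKM values in 1 table of 93615 rows, and 24545 rows with a question mark were left out. Per the submitters' processing notes, bcl2fastq 2.17, TopHat2, Partek and the build mm10 were used, while annotation, settings and strand use in counting are not given in the sources used here. Depth is unknown, so no counting interval is given.

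RPKM was summed over the rows of each symbol, and 12532 genes averaging 1 RPKM or more were tested on log2(RPKM + 1) with limma 3.58.1 (R 4.3.3), two-sided, with a variance trend and no block. The replicate numbers were not treated as pairs, since the labels state no shared animal or day. Coordinates and exon overlaps came from GENCODE M21 (GRCm38), promoters from RefSeq (GRCm38.p6), and near-identical transcripts from blastn 2.17.0 (at least 95% identity over 200 bases).

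The members and lists were chosen with earlier results of these data known. Values in every library are given for genes not called and, in each role group, the 2 largest and 1 smallest absolute changes, and for Orc1 and Pcna, whose promoters are printed. Of the further genes, the 3 largest changes toward each side and the genes of the pairs are named. Alternatives changed the pseudocount, filter, scaling, row choice, block, variance trend and libraries.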

Additional observations from a re-analysis of the deposited data

How the results depend on the processing

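The count of replication genes called higher in tip was 50 of 53 under each alternative that tested all 53 symbols, including another pseudocount (0.1 or 5), median-ratio scaling, the highest row of each symbol, no variance trend, each library left out in turn and the replicate block. It was 47 of 50 with a minimum mean of 5 RPKM, which removes genes, and no gene of the 53 was called higher in stalk under any of them. Over all genes tested, the deviations of same-numbered libraries from their group means had correlations of -0.303, -0.335 and 0.093. With 3 libraries per group these values cannot decide whether the numbers mark shared animals or days. With the replicate block, 2716 of all genes were called in the tip direction and 2380 in the stalk direction, against 3274 and 2815 without it. Median-ratio scaling gave 3081 in the tip direction and 3090 in the stalk direction, so which direction held more of all genes turned with the scaling. For the pairs of genes, the replicate block used the mean of the same-numbered differences. With 3 such differences its exact test cannot give a p below 0.25, so it could not call any pair. No conclusion about the pairs is drawn from it.

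Without a filter on low values, 2 further replication genes were called higher in stalk in place of 1, since Mcmdc2, with means of 0.0695 RPKM in tip and of 0.846 RPKM in stalk, was then tested. When the highest row stood for the gene, the log2 fold change of Orc3 was -0.53 and that of Orc4 -0.09, against -0.11 and 0.11 for the sums of their rows. Leaving out libraries or changing the other settings moved Orc5 between 0.04 and 0.24, and none of these 3 genes was called under any of these settings. Leaving out 1 library moved the log2 difference of Chaf1a over Chaf1b between -0.22 and 0.0013, with 0.0013 reached without stalk replicate 2. That of Cdt1 over Gmnn was 0.01 without tip replicate 2 and 0.3 without tip replicate 1, against 0.18 with all libraries. That of Orc1 over Orc2 was 0.18 without stalk replicate 2, 0.55 without stalk replicate 1 and 0.65 with a pseudocount of 0.1, against 0.34 as reported. A pseudocount of 0.1 gave -0.044 for Chaf1a over Chaf1b, against -0.11. With the highest row of each symbol, Mcm10 over Mcm8 differed by 0.72 with an exact permutation p of 0.3, against 0.99 and 0.1. A pseudocount of 5, which lowers the fold change of low genes, gave Orc1 0.62 and Gins3 0.5, both still called. The causes were not tested.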
